A study of Mus musculus with 18 samples.

Results

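The globin and heme synthesis genes are the 9 rows of the liver RNA sequencing table with the symbols Hba-a1, Hba-a2, Hbb-bs, Hbb-bt, Alas1, Alas2, Urod, Cpox and Fech, out of 19057 symbols and were chosen by name. Heme is an iron-bearing ring that is built from glycine and succinyl-CoA by enzymes of the mitochondria and the cytosol, and it is the oxygen-binding part of hemoglobin and the working centre of the cytochromes P450. ALA synthase is the first and rate-limiting enzyme, with a housekeeping form encoded by Alas1, which liver uses and which heme represses, and a form encoded by Alas2, which red cell precursors use. Hemoglobin joins alpha-globin and beta-globin chains, and globin mRNA in an adult liver sample is usually read as coming from blood.

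All samples were livers of ICR mice aged 10 weeks, an outbred strain, with 3 mice in each of 6 groups, and the study's methods give the mice as male. Con mice were controls, AOS mice received alginate oligosaccharide at 10 mg/kg, STZ mice received streptozotocin, which destroys the insulin-producing beta cells of the pancreas, and STZ+AOS mice received both agents. A10-FMT mice received STZ and then gut microbiota from AOS-dosed donors (10 mg/kg), whereas the donors of Con-FMT mice, which also received STZ, were controls. So 12 mice in 4 groups carried STZ and 6 mice in 2 groups did not. Donor microbiota came from small intestine content and was pooled, and the dosing schedule of the AOS and STZ+AOS mice was not given in the sources used here. The 3 mice of a group are separate by their labels only, so each p-value measures the spread between these samples.

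Values are RPKM, in which reads are divided by transcript length and by library size, so levels of different genes can be compared per length. Sums of RPKM per mouse were 621121 to 806937, 9955 to 10409 genes reached 1 RPKM, and the read depth itself was not given. The smallest steps of 56 low genes gave relative depths of 0.954 to 1.08 for the 18 libraries. Only steps of near-equal size were kept for this estimate, so it could not show a large difference in depth. Hepatocyte markers such as Alb summed to 34780 to 56350 RPKM, in a tissue labelled liver. Calls below rest on an adjusted p under 0.05 in limma on log2(RPKM + 1), fitted on 10822 genes that reached 1 RPKM in at least 3 of 18 mice. Of the 9 genes, 8 entered that fit, and Hba-a2 did not reach the filter. The median of all 10822 genes was 0.21 higher in STZ than in Con on the log2 scale. It was -0.01 after the libraries were rescaled by their median ratio. So the calls that remained after that rescaling are given beside the counts of each gene list. That rescaling called 24.4% of all genes in STZ against Con and 24.5% in STZ+AOS against AOS. It called 9.42% in A10-FMT against Con and 6.62% in Con-FMT against Con. Of these called genes 50%, 49.9%, 51.2% and 50.4% were higher.

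Sequences bear on how the globin rows can be read. In the GENCODE M21 annotation of mm10, Hba-a1 lies at chr11:32283511-32284465 and Hba-a2 at chr11:32296489-32297298, both on the plus strand, and Hbb-bs lies at chr7:103826534-103828096 and Hbb-bt at chr7:103812524-103813996, both on the minus strand. The open reading frames of the alpha pair were identical at 428 of 429 bases and those of the beta pair at 443 of 444 bases. The stretches around the 1 differing base of each pair are shown because few reads within the reading frames can separate the members. All 4 stretches lie in exon 3, and the capital marks the differing base, at position 381 of the alpha and position 417 of the beta reading frame counted from the A of the start codon. They span chr11:32284313-32284373, chr11:32297130-32297190, chr7:103826665-103826722 and chr7:103812656-103812713 in this order.
Hba-a1: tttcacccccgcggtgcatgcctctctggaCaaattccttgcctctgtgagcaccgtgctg
Hba-a2: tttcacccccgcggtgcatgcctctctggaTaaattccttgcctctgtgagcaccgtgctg
Hbb-bs: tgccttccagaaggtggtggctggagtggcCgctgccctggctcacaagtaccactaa
Hbb-bt: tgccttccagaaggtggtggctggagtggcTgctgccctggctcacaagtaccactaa
How the authors' mapping assigned reads of the shared sequence was not given in the sources used here, so the split within a pair is uncertain. Of the enzymes, Alas1 lies at chr9:106233455-106248654 and Urod at chr4:116989965-116994413 on the minus strand, and Alas2 at chrX:150547375-150570638 and Cpox at chr16:58670292-58717636 on the plus strand. The reading frames of Alas1 and Alas2 were 63.1% identical and those of Hba-a1 and Hbb-bs 57.8%, so these rows are easier to separate.

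Promoter windows of RefSeq (GRCm38.p6, 250 bases before to 50 after the transcript start) are shown for the housekeeping and the erythroid ALA synthase, the pair that moved apart in the data, and for the globins with the highest alpha and beta levels among the 9 genes. Capitals mark matches to 3 motifs searched on both strands, the GATA box (AGATAA), the CACCC box that KLF factors bind, and the CCAAT box. The Alas1 window is chr9:106247905-106248204 and lies on the minus strand, and a second Alas1 window of RefSeq overlaps it.
Alas1: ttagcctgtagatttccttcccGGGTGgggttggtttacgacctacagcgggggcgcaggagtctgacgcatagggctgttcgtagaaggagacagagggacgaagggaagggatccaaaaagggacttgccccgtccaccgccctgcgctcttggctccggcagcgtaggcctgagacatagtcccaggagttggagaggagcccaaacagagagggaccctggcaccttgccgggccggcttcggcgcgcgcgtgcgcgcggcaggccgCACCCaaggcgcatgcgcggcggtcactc
Alas2: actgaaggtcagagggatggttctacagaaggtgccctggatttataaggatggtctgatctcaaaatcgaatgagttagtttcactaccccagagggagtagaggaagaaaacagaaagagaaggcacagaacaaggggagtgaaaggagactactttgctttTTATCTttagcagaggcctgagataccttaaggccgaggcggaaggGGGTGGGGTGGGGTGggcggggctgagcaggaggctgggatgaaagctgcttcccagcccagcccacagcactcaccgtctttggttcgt
Hba-a1: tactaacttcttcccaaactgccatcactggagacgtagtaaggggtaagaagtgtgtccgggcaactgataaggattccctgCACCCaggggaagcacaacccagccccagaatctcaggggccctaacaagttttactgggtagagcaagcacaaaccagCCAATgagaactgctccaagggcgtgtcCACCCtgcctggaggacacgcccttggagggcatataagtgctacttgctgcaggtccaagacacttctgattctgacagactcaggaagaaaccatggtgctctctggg
Hbb-bs: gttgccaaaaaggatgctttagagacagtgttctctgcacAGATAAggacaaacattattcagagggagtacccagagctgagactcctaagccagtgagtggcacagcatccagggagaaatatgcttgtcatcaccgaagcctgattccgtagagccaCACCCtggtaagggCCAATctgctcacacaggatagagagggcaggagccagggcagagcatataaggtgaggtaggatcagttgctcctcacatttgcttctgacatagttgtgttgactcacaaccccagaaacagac
The Alas2 window is chrX:150547167-150547466 on the plus strand, that of Hba-a1 is chr11:32283422-32283721 on the plus strand, and that of Hbb-bs is chr7:103827879-103828178 on the minus strand. Among 32851 promoter windows, the GATA box occurred in 11.2%, the CCAAT box in 37.4% and the CACCC box in 57.5%. The letters AGATAA were found once each in the windows of Alas2 and Hbb-bs and in neither of the others. Only this spelling of the GATA box was searched, and the Hba-a1 window holds the near spelling tgataa. The CCAAT box was found once each in the windows of Hba-a1 and Hbb-bs. The CACCC box was found 2 times in the Alas1 window, 3 times in a row in that of Alas2, where neighbouring copies share no letter, 2 times in that of Hba-a1 and once in that of Hbb-bs. The windows of Hba-a1 and Hba-a2 shared an unbroken run of 297 of 300 bases. A match describes letters and not a bound site.

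Levels of Alas1 and Alas2 moved in opposite directions with STZ. Alas1 was 24.9, 82.1 and 50.6 RPKM in the 3 Con mice and 193, 153 and 188 RPKM in the 3 STZ mice, so the groups did not overlap. Its mean was 52.5 ± 28.6 RPKM (SD, n = 3) in Con and 178 ± 21.6 RPKM in STZ, which is 3.39-fold higher in STZ. The fitted difference was 1.89 on the log2 scale (SE 0.446, limma, adjusted p = 0.00487), and it was 1.63 with an adjusted p of 0.0154 after median-ratio scaling.

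Alas2 was 116.6, 113.9 and 121.1 RPKM in Con and 3.59, 9.75 and 43.4 RPKM in STZ. All 3 STZ mice were below every Con mouse, but STZ mouse 3 was far nearer to Con than the other two. The mean fell from 117 ± 3.61 RPKM in Con to 18.9 ± 21.4 RPKM in STZ, a level 6.20-fold lower, and the fitted difference was -3.19 on the log2 scale (SE 0.575, limma, adjusted p = 0.000977). Without STZ mouse 3 it was -4.07 (adjusted p = 9.61e-06). In a bulk sample, fewer cells of a type and less RNA per cell cannot be told apart.

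Fech encodes ferrochelatase, which puts iron into the ring in the last step. It was 35.7, 41.9 and 40.3 RPKM in Con and 68.9, 68.0 and 64.6 RPKM in STZ, without overlap. The mean was 39.3 ± 3.25 RPKM in Con and 67.2 ± 2.28 RPKM in STZ, 1.71-fold higher, and the fitted difference was 0.76 on the log2 scale (SE 0.111, limma, adjusted p = 0.000247), or 0.50 with an adjusted p of 0.00224 after median-ratio scaling.

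The middle enzymes differed less. Urod, uroporphyrinogen decarboxylase of the cytosol, was 40.2, 44.8 and 44.6 RPKM in Con and 57.5, 50.3 and 46.2 RPKM in STZ. These groups did not overlap, but the difference of 0.24 (limma, adjusted p = 0.0613) was close to the shift of all genes and was -0.03 after median-ratio scaling and -0.01 after quantile normalization. Cpox, coproporphyrinogen oxidase of the mitochondria, was 52.0, 60.1 and 52.7 RPKM in Con and 52.7, 57.6 and 87.3 RPKM in STZ, and STZ mouse 3 alone stood above all Con mice. Its difference was 0.23 (adjusted p = 0.335) and turned to -0.04 under both of those scalings.

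In all, 2 of the 8 tested genes rose and 1 fell in STZ against Con, while 36.1% of all tested genes were called, 30.8% higher and 5.25% lower. Without overlap between groups were 4 of the 8, against 47.6% of all genes. So 3 of 8 called is a share like that of all genes.

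**Figure D1:**
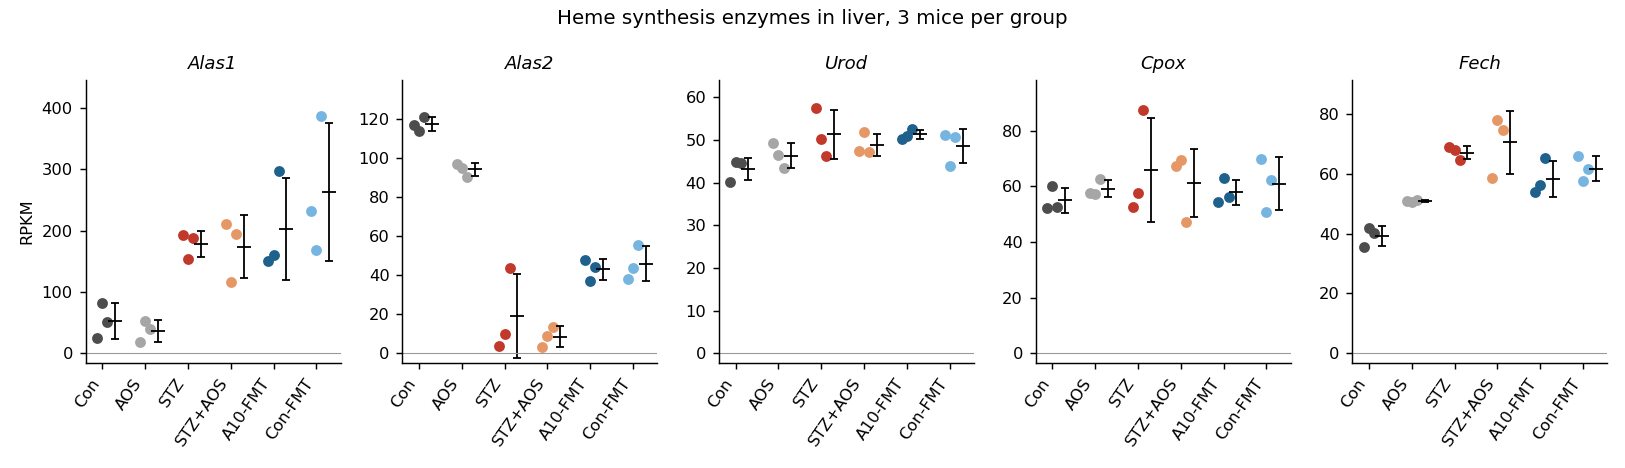
Levels of the 5 heme synthesis enzymes in RPKM (linear axes) in each mouse of the 6 groups, with a bar for the mean and a whisker for the SD of 3 mice. Alas1 and Fech lie higher and Alas2 lower in all 12 mice given STZ, while Urod and Cpox overlap between the mice with and without STZ.

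The same 3 enzymes separated all mice given STZ from the others. Alas1 was 116 to 387 RPKM in the 12 mice with STZ and 17.8 to 82.1 RPKM in the 6 mice without, Fech was 53.9 to 78.2 RPKM against 35.7 to 51.3 RPKM, and Alas2 was 2.93 to 55.5 RPKM against 90.3 to 121.1 RPKM. Among all tested genes, 10.7% lay above in every mouse with STZ and 1.43% lay below. The ratio of Alas2 to Alas1 was 1.39 to 4.68 in Con and 1.80 to 5.45 in AOS, so the erythroid form was the more abundant ALA synthase transcript in all 6 livers without STZ. It was 0.0186 to 0.231 in STZ, 0.0139 to 0.0746 in STZ+AOS, 0.148 to 0.320 in A10-FMT and, among Con-FMT mice, 0.144 to 0.260, so the housekeeping form was the more abundant in all 12 mice with STZ.

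The STZ comparison was repeated among mice given AOS. Alas1 was 17.8, 52.9 and 39.7 RPKM in AOS and 211, 116 and 194 RPKM in STZ+AOS, a difference of 2.29 on the log2 scale (SE 0.446, limma, adjusted p = 0.00158). Alas2 was 97.0, 94.9 and 90.3 RPKM in AOS and 2.93, 8.62 and 13.6 RPKM in STZ+AOS, a difference of -3.53 (SE 0.575, adjusted p = 0.000573). Fech was 51.0, 50.6 and 51.3 RPKM in AOS and 58.7, 78.2 and 74.8 RPKM in STZ+AOS, a difference of 0.45 (SE 0.111, adjusted p = 0.00615) that was 0.21 and not called after median-ratio scaling (adjusted p = 0.130). None of these groups overlapped. Without STZ+AOS mouse 3, which held pancreas transcripts as described with the markers, the differences were 2.19 for Alas1 (adjusted p = 0.00635), -3.95 for Alas2 (adjusted p = 0.0008) and 0.40 for Fech (adjusted p = 0.022), all 3 still called, with 32.1% of all genes called. So 2 of the 8 tested genes rose and 1 fell, against 37.9% of all genes called, 31.8% higher and 6.11% lower. Without overlap were 5 of the 8, the other two being Hba-a1 and Hbb-bs, against 49.1% of all genes. The test of whether the STZ difference itself differed between mice with and without AOS called 0 of the 8 genes and 0 of 10822 (limma), with 5.4% of all genes and 0 of the 8 at an unadjusted p under 0.05. The smallest unadjusted p among the 8 was that of Fech, whose difference was 0.31 smaller with AOS (SE 0.157, unadjusted p = 0.0657, adjusted p = 0.856).

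AOS alone left the 8 genes without a call against Con (limma, 0.00924% of all genes called), and 1 of the 8, Fech, had an unadjusted p under 0.05, as had 7.22% of all genes. Fech was 0.37 higher in AOS on the log2 scale (SE 0.111, unadjusted p = 0.00429, adjusted p = 0.524), and its AOS mice lay within 50.6 to 51.3 RPKM, above every Con mouse. Alas2 was lower in every AOS mouse than in every Con mouse, with a difference of -0.31 (adjusted p = 0.941). Without overlap were 3 of the 8 genes, against 24.4% of all genes. STZ+AOS against STZ also gave 0 calls among the 8 and 0 among all genes (limma), with 6.07% of all genes and 1 of the 8, Hbb-bs, at an unadjusted p under 0.05.

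Both groups given microbiota after STZ kept Alas1 and Fech above Con. Alas1 was 150, 160 and 298 RPKM in A10-FMT, and the Con-FMT mice had 232, 168 and 387 RPKM. It was 2.01 higher than Con on the log2 scale in A10-FMT (SE 0.446, limma, adjusted p = 0.00893) and 2.37 higher in Con-FMT (adjusted p = 0.00427). Fech was 53.9, 56.2 and 65.3 RPKM in A10-FMT, and the Con-FMT mice had 66.0, 57.5 and 61.8 RPKM. Its differences from Con were 0.56 (SE 0.111, limma, adjusted p = 0.00472) and 0.64 (adjusted p = 0.00255), or 0.36 (adjusted p = 0.0315) and 0.42 (adjusted p = 0.0185) after median-ratio scaling, and both groups lay above all Con mice. These were 2 of the 8 genes in each comparison, while 17.1% of all genes were called in A10-FMT (14.7% higher) and 18.1% in Con-FMT (16.3% higher). Without overlap with Con were 4 of the 8 in each, against 48.4% and 45.3% of all genes. The Alas1 call in A10-FMT was lost without A10-FMT mouse 3 (adjusted p = 0.0508) and without Con mouse 1 (adjusted p = 0.0523), so 1 gene was then called, and Fech in A10-FMT missed the threshold after quantile normalization (0.30, adjusted p = 0.0603). The 2 comparisons share the Con mice.

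Alas2 lay between Con and STZ after transplant. It was 47.8, 37.1 and 44.2 RPKM in A10-FMT, and the Con-FMT mice had 38.1, 43.6 and 55.5 RPKM, values close to each other and to STZ mouse 3. All 6 transplanted mice were below every Con mouse, with fitted differences from Con of -1.43 in A10-FMT (SE 0.575, limma, adjusted p = 0.0963) and -1.35 in Con-FMT (adjusted p = 0.109). Fitted on the 2 groups alone, without the spread of all other groups, the differences had the same size and adjusted p-values of 0.00021 and 0.00398. Alas2 was called in 1 of 17 alternatives in each comparison, with adjusted p-values of up to 0.206 and 0.276 (limma). Against STZ, Alas2 was 1.75 higher in A10-FMT (SE 0.575, unadjusted p = 0.00789, adjusted p = 0.137) and 1.83 higher in Con-FMT (unadjusted p = 0.00599, adjusted p = 0.123).

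STZ mouse 3 decided these comparisons with STZ. Without it, Alas2 was 2.64 higher in A10-FMT (limma, adjusted p = 0.00238) and 2.72 higher in Con-FMT (adjusted p = 0.00165), and 9.23% and 12.2% of all genes were called. With all mice, 0 of the 8 genes were called in either comparison (limma), where 0.49% and 0.166% of all genes were, and 1 and 2 of the 8 had an unadjusted p under 0.05, against 18.9% and 18.8%. Between the 2 kinds of donor microbiota 0 of the 8 genes and 0 of all genes were called (limma, 2.26% of all genes and 0 of the 8 at an unadjusted p under 0.05), and 1 of the 8, Hba-a1, did not overlap, as 8.84% of all genes did not. Alas2 was 43.0 ± 5.44 RPKM with A10-FMT, against 45.7 ± 8.90 RPKM with Con-FMT (SD, n = 3).

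**Figure D2:**
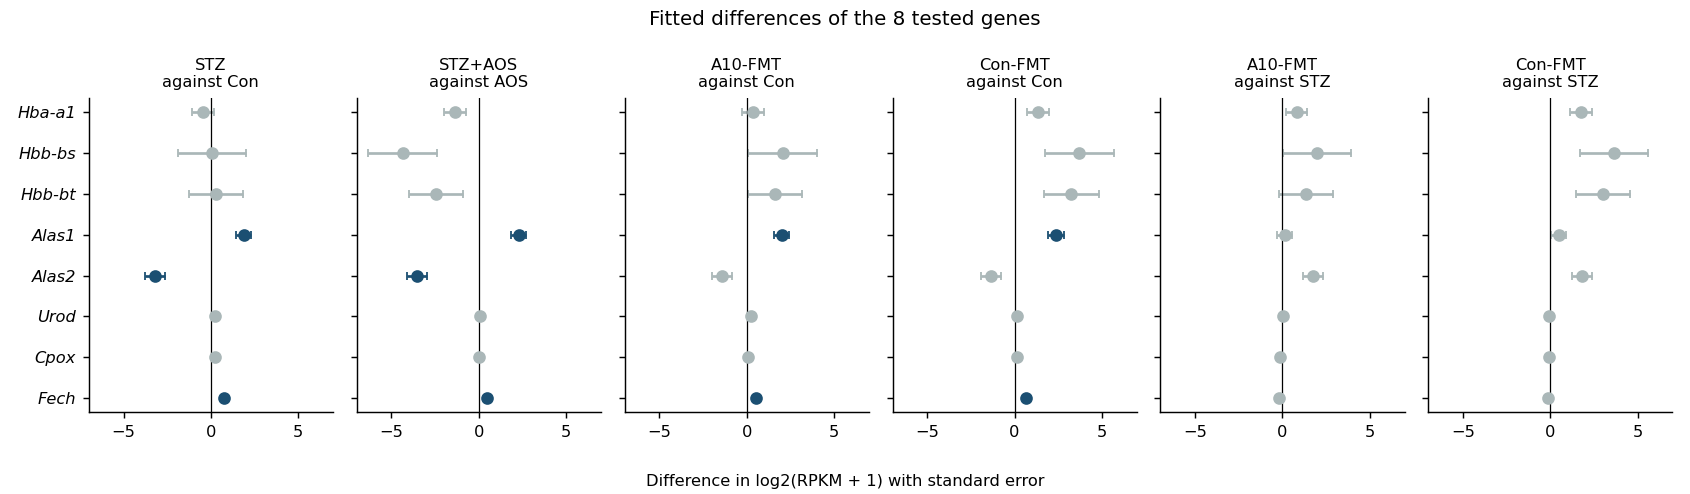
Fitted differences in log2(RPKM + 1) with their standard errors for the 8 tested genes in 6 comparisons, dark where the adjusted p was under 0.05 and pale otherwise. Alas1 and Fech lie to the right in the 4 comparisons with Con or AOS, Alas2 lies to the left in them and is called in 2, and the beta-globins have the widest errors.

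By group mean, Alas1 ran from AOS (36.8 RPKM) through Con (52.5), STZ+AOS (174), STZ (178) and A10-FMT (203) to Con-FMT (262), and only the step from Con to STZ+AOS separated neighbours without overlap. Alas2 ran from STZ+AOS (8.40 RPKM) through STZ (18.9), A10-FMT (43.0) and Con-FMT (45.7) to AOS (94.1) and Con (117), and the last 2 steps were without overlap. Fech ran from Con (39.3 RPKM) through AOS (51.0), A10-FMT (58.5), Con-FMT (61.8) and STZ (67.2) to STZ+AOS (70.6), with the first 2 steps without overlap. Group means of Urod stayed within 43.2 to 51.3 RPKM and those of Cpox within 54.9 to 65.9 RPKM, and all neighbours overlapped.

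Globin levels spread widely between mice of the same group. Hba-a1, an adult alpha-globin, was 1854, 894 and 1471 RPKM in Con, 404, 1626 and 1545 RPKM in STZ, and 276.5, 1464 and 1487 RPKM in STZ+AOS. One mouse in STZ and one in STZ+AOS were low and the others lay within or near the Con range. It was 2014, 2494 and 2133 RPKM in AOS, 6455, 2214 and 2715 RPKM in Con-FMT, and 1169, 2094 and 2214 RPKM in A10-FMT. Con-FMT mouse 1 stood far above the other 17 mice, and over all mice the level ranged 23.3-fold.

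In no comparison was Hba-a1 called. Con-FMT lay above every Con mouse (45.3% of all genes without overlap), by 1.33 (SE 0.631, limma, unadjusted p = 0.0516, adjusted p = 0.148). AOS also lay above every Con mouse (24.4% of all genes without overlap), by 0.71 (adjusted p = 0.851). The difference of STZ from Con was -0.42 on the log2 scale (SE 0.631, limma, adjusted p = 0.628), and it turned to 0.24 without STZ mouse 1. Con-FMT lay above STZ without overlap (17.5% of all genes), with a difference of 1.75 (SE 0.631, unadjusted p = 0.0139, adjusted p = 0.163) that was 1.29 without Con-FMT mouse 1 and 1.09 without STZ mouse 1. The order by mean ran from STZ+AOS (1076 RPKM) through STZ (1192), Con (1406), A10-FMT (1825) and AOS (2214) to Con-FMT (3795), and every pair of neighbours overlapped. Hba-a2, the second adult alpha-globin gene, was 0 to 1.80 RPKM and listed at 0 in 2 mice. Where both rows had a value, that of Hba-a1 was 988 to 5816 times that of Hba-a2, although the 2 reading frames differ at 1 base.

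The beta-globins Hbb-bs and Hbb-bt switched between near 0 and high levels within groups. Hbb-bs was 0.85, 220 and 91.9 RPKM in Con, 0.90, 133 and 84.6 RPKM in AOS, and 48.1, 2.66 and 245 RPKM in STZ. It was 0.23, 0.15 and 0.79 RPKM in STZ+AOS, 2341, 74.1 and 491 RPKM in Con-FMT, and 162, 31.2 and 531 RPKM in A10-FMT. So 5 of 18 mice were under 1 RPKM, among them all 3 STZ+AOS mice. Hbb-bt was 0, 27.9 and 11.1 RPKM in Con, 0, 19.4 and 6.62 RPKM in AOS, and 13.9, 0 and 40.7 RPKM in STZ. It was 332, 11.7 and 72.5 RPKM in Con-FMT, 22.0, 5.20 and 73.1 RPKM in A10-FMT, and listed at 0 in all 3 STZ+AOS mice. It was listed at 0 in the same 6 mice in which Hbb-bs was lowest.

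Neither gene was called in any comparison. In STZ against Con the differences were 0.07 for Hbb-bs (SE 1.97, limma, adjusted p = 0.981) and 0.28 for Hbb-bt (adjusted p = 0.904), and that of Hbb-bs was -0.14 after median-ratio scaling and -0.08 after quantile normalization. Leaving out STZ mouse 1, STZ mouse 3 or Con mouse 1 turned both signs, for example to -2.02 for Hbb-bs without Con mouse 1. Hbb-bs in STZ+AOS lay below STZ without overlap (5.13% of all genes), with a difference of -4.70 (SE 1.97, unadjusted p = 0.0301, adjusted p = 0.806), and below AOS by -4.36 (unadjusted p = 0.0421, adjusted p = 0.0911).

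**Figure D3:**
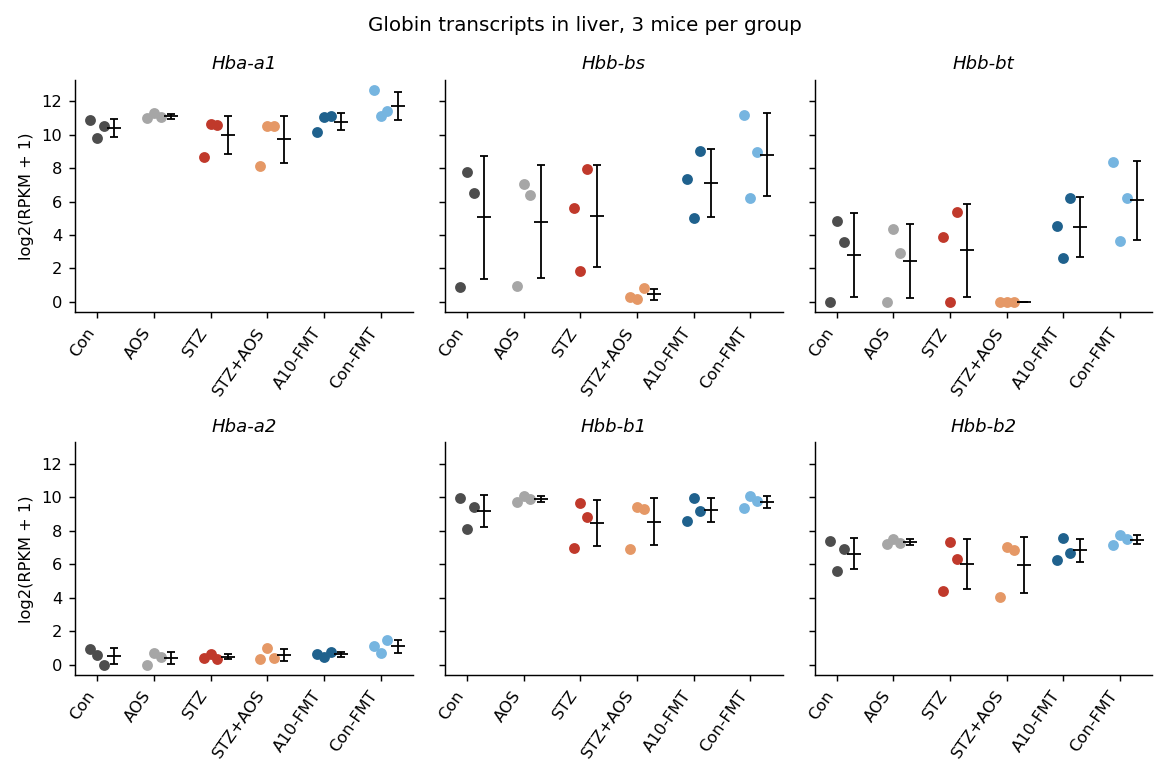
Levels of 6 globin genes as log2(RPKM + 1) in each mouse, with the mean and SD of 3 mice beside the points of each group. Hbb-bs and Hbb-bt are near 0 in some mice of Con, AOS and STZ and in all 3 STZ+AOS mice, while Hba-a1, Hbb-b1 and Hbb-b2 are high in all 18 mice and Hba-a2 is low in all.

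The table holds a second adult beta-globin pair, Hbb-b1 and Hbb-b2, which are no members of the 9 but account for the rest of the beta-globin. As background, inbred strains carry one pair or the other at the beta-globin locus of chromosome 7, Hbb-bs with Hbb-bt or Hbb-b1 with Hbb-b2. Hbb-b1 was 119 to 1095 RPKM and present in all 18 mice, at 4.65 to 7.75 times the level of Hbb-b2. Hbb-bs and Hbb-bt made up 0.0737%, 43.2% and 11.2% of the summed beta-globin RPKM in the 3 Con mice, 0.0907%, 10.7% and 7.46% in AOS, and 30.2%, 0.272% and 35.3% in STZ. They made up 0.0187% to 0.171% in STZ+AOS, 28.8%, 2.97% and 46.7% in A10-FMT, and 76.8%, 6.18% and 34.7% in Con-FMT. The share was under 0.3% in 6 mice and at least 2.97% in the other 12, and every group except STZ+AOS and the 2 transplant groups held mice of both kinds. Genotypes at this locus were not tested.

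The sum of all 4 beta-globins followed the sum of the alpha-globins within each mouse. The alpha sum ranged from 277 to 6456 RPKM, 23.3-fold, and the beta sum 25.9-fold, while their ratio stayed within 1.56 to 2.06, 1.32-fold, over the 18 mice. The ratio was 1.59 ± 0.0273 (SD, n = 3) in Con, 1.84 ± 0.164 in AOS, 1.85 ± 0.161 in STZ, 1.95 ± 0.118 in STZ+AOS, 1.75 ± 0.0726 in A10-FMT and 1.71 ± 0.133 in Con-FMT. The alpha sum over Hbb-bs and Hbb-bt alone ranged from 2.42 to 9766. The 4 globin genes of the set took 0.0432% of all RPKM in STZ+AOS mouse 1 and 1.36% in Con-FMT mouse 1.

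**Figure D4:**
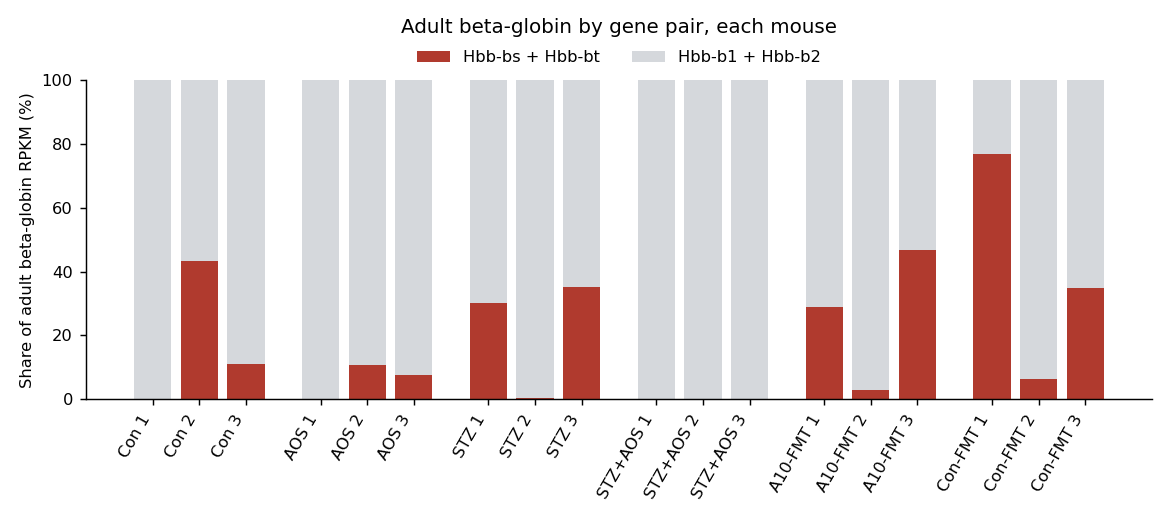
Share of the summed adult beta-globin RPKM in percent that came from Hbb-bs and Hbb-bt (dark) and from Hbb-b1 and Hbb-b2 (pale), for each of the 18 mice. The dark share runs from 0.0187% in STZ+AOS mouse 2 to 76.8% in Con-FMT mouse 1, and mice of 1 group differ widely.

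Alas2 and the globins did not rank the mice alike. In Con it stayed within 113.9 to 121.1 RPKM while Hba-a1 ran from 894 to 1854 RPKM, and Con-FMT mouse 1, the mouse with the most globin, had 38.1 RPKM of Alas2, the lowest of its group. STZ mouse 1 and STZ+AOS mouse 1, the mice with the least Hba-a1, also had the least Alas2, 3.59 and 2.93 RPKM. STZ mouse 2 had 1626 RPKM of Hba-a1, within the Con range, and 9.75 RPKM of Alas2.

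**Figure D5:**
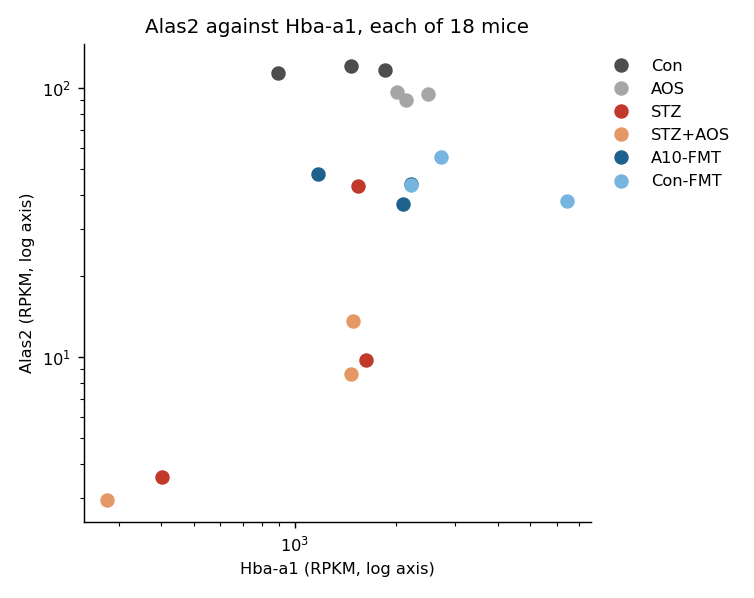
Alas2 against Hba-a1 in RPKM, both on log axes, 1 point for each of the 18 mice, coloured by group. The 6 mice without STZ form a band at 90.3 to 121.1 RPKM of Alas2 over 894 to 2494 RPKM of Hba-a1, and mice with STZ lie below it at like levels of Hba-a1.

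Markers of red cell precursors stood beside these genes at low levels. Of 17 erythroid markers in the table, 12 were under 1 RPKM in every mouse, among them the membrane protein Slc4a1 and the regulator Gata1. The whole list summed to 16.4 to 20.0 RPKM in Con, 15.4 to 16.7 in AOS, 20.2 to 32.2 in STZ, 23.5 to 33.7 in STZ+AOS, 19.6 to 32.8 in Con-FMT and 20.5 to 21.9 in A10-FMT, most of it from Tfrc, the transferrin receptor, and Bpgm, which makes 2,3-bisphosphoglycerate. In STZ against Con 1 of 5 tested markers was called, while 36.1% of all genes were. This was Tfrc at 0.83 (limma, adjusted p = 0.0379), which was not called after median-ratio scaling (0.59, adjusted p = 0.135). Alas2 alone was above the summed list in every Con and AOS mouse, and the list's sums in STZ lay above those in Con. Con-FMT mouse 1 had the most Bpgm (14.8 RPKM).

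Markers of other cell types were also compared. The summed Kupffer cell markers, those of the liver macrophages that take up old red cells, were 51.0 to 79.7 RPKM in Con and 81.1 to 184 RPKM in STZ, where 2 of 5 rose. Of 5 endothelial markers 2 rose and 0 fell, and of 6 hepatocyte markers 1 rose and 3 fell. Of 2 tested bile duct markers 0 rose and 1 fell. Among all genes 30.8% were called higher and 5.25% lower in STZ against Con. After median-ratio scaling 1 Kupffer cell marker, 1 endothelial marker and 0 hepatocyte markers were called higher, and the calls of the lower markers were kept. Of 3 tested neutrophil markers 0 were called and of 2 tested platelet markers 1 fell, and the 6 lymphocyte markers summed to 0.68 to 3.22 RPKM over all mice. Among 5 pancreas markers Cela1 was the only one tested, and it fell in STZ against Con by 2.55 on the log2 scale (limma, adjusted p = 6.92e-05), from 30.8 to 40.5 RPKM in Con to 2.96 to 8.73 RPKM in STZ. The other 4 pancreas markers did not follow Cela1 and were at most 0.64 RPKM in every Con mouse. Whether Cela1 marks pancreas cells in these livers was not tested. STZ+AOS mouse 3 had 4.39 RPKM of Cela1, within the range of the other 17 mice, but stood apart in these 4 markers. It had 10.8 RPKM of the elastase gene Cela2a where the other 17 mice had 0 to 1.34 RPKM, 7.74 RPKM of the trypsinogen gene Prss2 (at most 0.4 in the others), 7.23 RPKM of the lipase gene Pnlip (at most 0.15) and 3.31 RPKM of the carboxypeptidase gene Cpa1 (at most 0.18). The part of these cells in the differences of the 9 genes was not tested.

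Alad, Uros and Ppox, further enzymes of the pathway, were not called in STZ against Con (limma), where all genes had a median difference of 0.21 on the log2 scale. Alad joins 2 ALA molecules and Ppox acts just before Fech. Uros, which closes the ring, had -0.48 (adjusted p = 0.0549), Alad -0.35 (adjusted p = 0.215) and Ppox -0.20 (adjusted p = 0.223). After median-ratio scaling Uros (-0.72), Alad (-0.62) and Ppox (-0.44) were called lower, with adjusted p-values of 0.0174, 0.0432 and 0.0189. In STZ+AOS against AOS all 3 fell, Uros by 1.04 (adjusted p = 0.000968), Ppox by 0.47 (adjusted p = 0.00873) and Alad by 0.60 (adjusted p = 0.0387). Neither transplant group against Con gave a call among these 3.

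Of 16 genes that carry substrates or iron for the pathway or serve it, 8 rose and 1 fell in STZ against Con, with a median of 0.31, while 30.8% of all genes were called higher. After median-ratio scaling 4 of the 8 were still called higher. Abcb6, a porphyrin transporter, was 0.61 higher (limma, adjusted p = 0.00111), Slc25a39, a carrier of the inner membrane, 0.62 (adjusted p = 0.00271) and Nfs1, a cysteine desulfurase, 0.44 (adjusted p = 0.0029). Nfs1 was not called after median-ratio scaling (0.18, adjusted p = 0.161). The 1 that fell was Abcb10, a transporter of the inner membrane (-0.28, adjusted p = 0.0408), named after its value was seen. In STZ+AOS against AOS 3 rose and 1 fell, in A10-FMT against Con 9 rose and 1 fell, and in Con-FMT against Con 8 rose and 0 fell, where 31.8%, 14.7% and 16.3% of all genes were called higher. After median-ratio scaling 1 of the 3, 3 of the 9 and 1 of the 8 were still called higher (24.5%, 9.42% and 6.62% of all genes called, either direction). Called lower under that scaling were 3, 2 and 0 of the 16 genes, in the same order.

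Of 10 genes of heme breakdown and scavenging, 4 rose and 0 fell in STZ against Con (30.8% of all genes higher). Ugt1a1, which conjugates bilirubin, was 2.06 higher (limma, adjusted p = 6.92e-05), Slc48a1, a heme transporter, 0.51 (adjusted p = 0.0056), Hmox2, the constitutive heme oxygenase, 0.48 (adjusted p = 0.0213) and Cd163, the receptor for hemoglobin with haptoglobin, 0.72 (adjusted p = 0.0349). After median-ratio scaling Ugt1a1 was still called (1.79) and the other 3 were not. Of 3 other globins tested 1 rose, Cygb (0.51, adjusted p = 0.0435), which was not called after median-ratio scaling (0.31, adjusted p = 0.241), while Hbb-b1 (-0.70, adjusted p = 0.449) and Hbb-b2 (-0.62, adjusted p = 0.542) were not called.

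Of 10 genes known to regulate Alas1, 7 rose and 0 fell in STZ against Con (30.8% of all genes higher), and 6 of the 7 were still called after median-ratio scaling. The nuclear receptors Nr1d2 and Nr1d1 bind heme and were 2.81 (limma, adjusted p = 6.8e-06) and 3.19 (adjusted p = 0.000119) higher. The heme-binding repressor Bach1 was 1.19 higher (adjusted p = 0.000164), and Ppargc1a, a coactivator of fasting, 1.86 (adjusted p = 0.00033). In STZ+AOS against AOS 7 rose, in A10-FMT against Con 6 and in Con-FMT against Con 5, with 0 lower in each. The shares of all genes called higher were 31.8%, 14.7% and 16.3%. After median-ratio scaling 4 of the 7, 3 of the 6 and 2 of the 5 were still called higher (24.5%, 9.42% and 6.62% of all genes called, either direction).

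Of 17 heme-binding proteins of hepatocytes, 10 rose and 0 fell in STZ against Con, with a median of 0.59 (30.8% of all genes higher). After median-ratio scaling 5 of the 10 were still called, Cyp4a10, Cyp4a14, Cyp2b10, Tdo2 and Cyc1. Cyp4a10 and Cyp4a14, which hydroxylate fatty acids, were 8.31 (limma, adjusted p = 3e-07) and 9.02 (adjusted p = 2.1e-06) higher on the log2 scale, Cyp2b10, a drug-metabolizing enzyme, 3.84 (adjusted p = 0.000104), and Tdo2, which opens the ring of tryptophan, 1.06 (adjusted p = 0.00207). In STZ+AOS against AOS 9 rose and 1 fell, and in both transplant groups against Con 9 rose and 0 fell. After median-ratio scaling 4 of the 9 were still called higher in STZ+AOS against AOS, 6 of the 9 in A10-FMT and 5 of the 9 in Con-FMT. Called lower under that scaling were 2, 0 and 0 of the 17, in the same order. The shares of all genes called under that scaling, in either direction, were 24.5%, 9.42% and 6.62%.

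Likeness across the 18 mice is given as a description, and all mice share the table and the groups. Among the genes most like Hba-a1 by Pearson's r of log2(RPKM + 1) were the beta-globins Hbb-b2 (0.877) and Hbb-b1 (0.844), and Acadsb (0.789) and Arl6ip1 (0.766). Those most like Alas1 were Slc35a4 (0.921), Lancl1 (0.917), Mlf2 (0.910), Eif2s1 (0.910) and Nob1 (0.909). For Alas2, looked up after its values were seen, they were Keg1 (0.972), Slc22a30 (0.969), Hsd3b2 (0.968), Cyp2c67 (0.967) and Scp2 (0.965). The 9 genes themselves were left out of these rankings, so their globins could not appear. Hbb-b1 and Hbb-b2 could appear and were not among the 5 genes most like Alas2.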

How the data were processed

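Liver RNA of 18 mice, 3 in each of 6 groups, was sequenced. By the methods of the paper, polyadenylated RNA was sequenced on an Illumina HiSeq, the authors mapped reads to reference genes with SOAPaligner and deposited RPKM, 1 value per gene and mouse with 2 decimals. The submitters' processing notes list Bowtie 0.12.2 and mm10. How reads shared by near-identical genes were assigned was not given in the sources used here, and poly(A) selection and PCR without molecular identifiers also shape these values. Read totals were not given, so no counting interval is possible.

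RPKM were taken as deposited. With a pseudocount of 1, log2 values entered limma 3.58.1 (R 4.3.3; functions lmFit, contrasts.fit and eBayes, with trend), restricted to 10822 genes that reached 1 RPKM in 3 or more of 18 libraries, all 6 groups sharing 1 spread. Fold changes on this scale understate low genes. Tests were two-sided with Benjamini-Hochberg adjustment over all genes within a contrast, and calls required an adjusted p under 0.05. On simulated data with 200 changed genes at a log2 size of 2, 96% were recovered with 14 false calls. No 2 libraries held identical values (r of 0.903 to 0.996).

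The 9 genes and all lists were chosen with earlier results of these data known. All 9 genes were named, and from each list at most 4 per comparison with the smallest adjusted p (erythroid, at most 6 by level), except that some genes of the lists are not reported here. The 5 genes most like Hba-a1 and Alas1 were named, among genes outside the 9 with a mean of at least 1 RPKM. Lists were heme synthesis, its transport and support, heme breakdown, other globins, regulators of Alas1, hepatic heme proteins, and markers of erythroid, neutrophil, platelet, lymphocyte, Kupffer, endothelial, hepatocyte, bile duct and pancreas acinar cells. Symbols were placed with GENCODE M21, where 18517 of 19057 matched. Reading frames are the longest in the GENCODE transcripts, and promoters come from RefSeq GRCm38.p6. The table held 26 symbols that looked like dates and 3 that were repeated.

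Mouse numbers recur in every group, but no source ties them to litters or days. Same-numbered mice of 2 groups deviated together with correlations of -0.249 to 0.472 over 27 pairs, and all 3 pairs were over 0.1 in A10-FMT against Con-FMT alone (0.121, 0.291 and 0.179). Alternatives were other scalings, filters and pseudocounts, leaving out each mouse, fewer groups, the replicate block and a fold limit.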

Additional observations from a re-analysis of the deposited data

How the results depend on the processing

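Alas1, Alas2 and Fech in STZ against Con were called in all 17 alternatives without a fold limit, with differences of 1.44 to 2.28, -4.07 to -2.44 and 0.50 to 0.99. Where an absolute log2 change of at least 1 was also required, 2 were called there and in STZ+AOS against AOS, Alas1 and Alas2, and Fech was not. The number of the 8 genes called was 5 in STZ against Con under TPM scaling, with or without the globins, where Urod and Cpox were added and 58.7% and 58.5% of all genes were called. It was 1 in A10-FMT against Con after quantile normalization, 4 when only these groups were fitted, and 1 in both A10-FMT and Con-FMT against Con with that fold limit. Leaving out 1 mouse gave 1 to 2 calls in A10-FMT against Con, 0 to 1 in A10-FMT against STZ and 0 to 1 in Con-FMT against STZ. In STZ against Con signs turned after quantile normalization and median-ratio scaling for Hbb-bs (-0.0847 and -0.137), Urod (-0.0115 and -0.0252) and Cpox (-0.0397 and -0.0396). Leaving out 1 mouse gave -0.77 to 0.24 for Hba-a1, -2.02 to 1.71 for Hbb-bs and -1.13 to 1.82 for Hbb-bt. The cause was not tested, except that fewer mice or genes enter some fits.

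With the mouse number as a replicate block the 8 genes gave 3, 0, 0, 3, 0, 0, 2, 2 and 0 calls in the 9 comparisons, the same numbers as without it, in A10-FMT against Con-FMT 0 as well. In STZ against Con the blocked differences were 1.89 for Alas1, -3.19 for Alas2 and 0.76 for Fech.

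After median-ratio scaling, the share of called genes that were higher went from 85.5% to 50% in STZ against Con, from 83.9% to 49.9% in STZ+AOS against AOS, from 86.0% to 51.2% in A10-FMT against Con and from 90.2% to 50.4% in Con-FMT against Con. The number of all genes called in STZ against Con was 2638 then and 3904 before. Depth per mouse was not given, so how far it limits Hba-a2 and Hbb-bt near 0 is unknown. With 3 mice a group, a gene that misses the threshold is not shown to be equal between groups.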
